A study of Nannochloropsis oceanica strain IMET1 with 6 samples.

Results

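A set of 134 genes of modest abundance was strongly reduced in HLM23, an insertional mutant of the oil-storing alga Nannochloropsis oceanica. They were picked from the 9552 genes of the deposited table by 3 conditions on the normalised read count, which is the number of reads counted to a gene divided by a scaling factor for its library. The mean of the wild type (WT) had to be at least 20 and below 1000, the mean of HLM23 at most 40% of it, and the highest HLM23 value below the lowest WT value. Of the 5581 genes in that range of WT abundance, 134 (2.40%) met all conditions. Because these values chose the genes, their ratios between the strains describe the set and were not tested.

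Messenger RNA was sequenced in 3 libraries of HLM23, with the genotype NO06G03670-, and in 3 libraries of the WT. Both strains have the IMET1 background and were grown for 3 days in enriched artificial sea water at 25 °C with 16 h of light per day. The light was 600 µmol per square metre per second, with 0.2% CO2 and a starting optical density of 0.1 at 750 nm. Both were harvested 1 h before dark. The design asks how the transcriptome of this loss-of-function strain differs from that of the WT under favourable growth, within a search for gene targets that raise the lipid content. HLM23 is a single mutant strain, so the loss of NO06G03670 and any other difference of that strain cannot be told apart here. The labels do not say whether the replicates were separate cultures, so the spread between them may be technical.

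NO06G03670 is known from the literature to code for an APETALA2-like protein. Proteins of the AP2 family are DNA-binding transcription factors, and in land plants they steer development and stress responses. Nannochloropsis is a small single-celled marine alga of the eustigmatophytes that lays down triacylglycerol in lipid droplets. The position of the insertion is not stated in the labels, and the level sums reads over the whole gene. NO06G03670 itself had normalised read counts of 1073, 982 and 777 in HLM23, against 2164, 1664 and 1682 in the WT, so the WT mean lies above the range considered here and the gene is not in the set. The nearest gene of the set on chromosome 6 lies 339764 bases from it.

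No description stands beside the gene IDs in the deposited table, and 0 of the IDs matched the 160 organelle genes of the reference table. Roles are therefore not given for the 134 genes. Only the gene with the deepest fitted fall and the gene with the highest WT mean are called by their IDs, and the others by position, in the coordinates of the deposited table, for which no genome build is named in its header or in the labels. The libraries held 15331673 to 18711316 gene reads, and 1 read corresponds to 0.939 to 1.09 normalised reads, so a value of 10 rests on about 10 reads. On the first principal component of all tested genes outside the set, which held 60.6% of the variance, the HLM23 libraries lay at -40.9, -23.5 and -42.1 and the WT libraries at 46.7, 19.2 and 40.6. Among pairs of libraries from different strains, the replicate 2 libraries thus lay nearest to each other.

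In the WT, the 134 genes covered most of the allowed range, with means from 23.0 to 997 normalised reads and a median of 252. In HLM23 their means ran from 3.17 to 357, with a median of 76.1. The ratio of the means ran from 5.18% to 39.8% of the WT, with a median of 32.0%. Most of the set lay close to the upper limit: 82 genes were above 30% of the WT mean, 52 at or below 30%, 9 at or below 20% and 3 at or below 10%. Among all 5581 genes of the same WT abundance the median ratio was 102%. Together the 134 genes took 0.0686%, 0.109% and 0.0866% of all normalised reads in HLM23, against 0.364%, 0.228% and 0.304% in the WT. They are thus a small share of the messenger RNA in either strain.

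**Figure D1:**
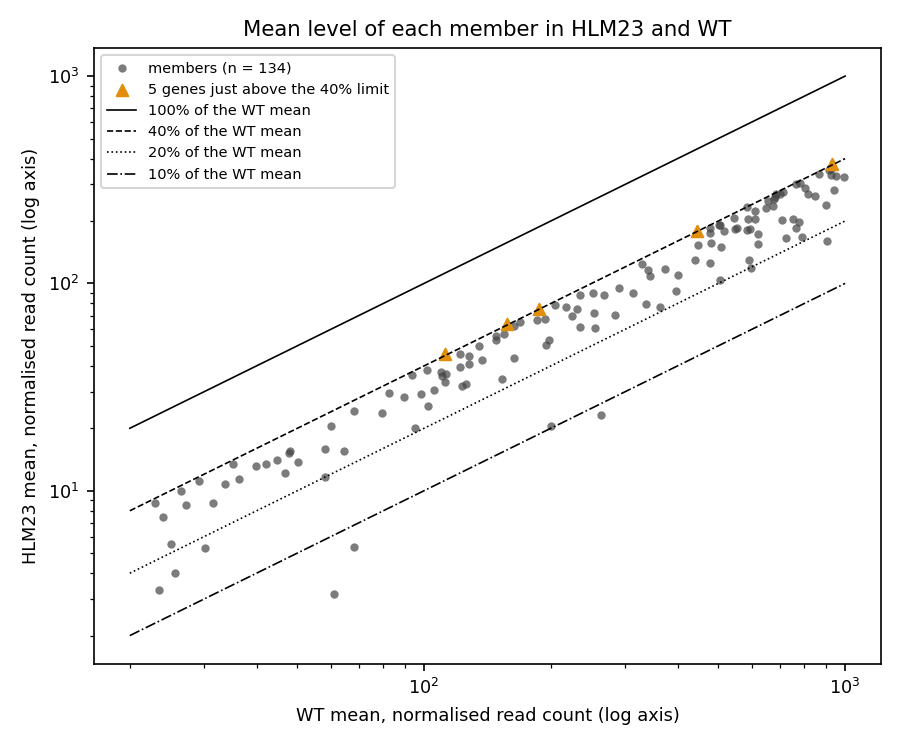
Mean normalised read count of each of the 134 genes in HLM23 (vertical, log axis) against the WT (horizontal, log axis), with lines at 100%, 40%, 20% and 10% of the WT mean and triangles for the 5 genes just above the 40% limit. Most points lie between the 20% and the 40% line over the whole range of WT abundance, and 3 lie at or below the 10% line.

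By abundance, the 33 genes with a WT mean below 100 had a median ratio of 31.3%, the 55 genes from 100 to 500 had 32.3%, and the 46 genes of at least 500 had 34.1%, all of them bounded by the 40% limit of the choice. The set made up 3.79% of all genes in the lowest of these WT ranges, 2.02% in the middle one and 2.31% in the highest. Read number limits the lowest genes: 6 of the set had fewer than 10 reads in every HLM23 library, and 1 gene was listed at 0 in 1 HLM23 library. In length-corrected units, the FPKM deposited by the authors, the set had a median of 2.86 in HLM23 and 9.62 in the WT. For 18 of the 134 genes the FPKM rests on another length than the gene length listed, by over 1%.

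The separation between the strains varied widely within the set. The lowest WT value was between 1.12 and 6.78 times the highest HLM23 value, with a median of 1.78. In 43 genes that factor was at least 2, and in 34 it was under 1.5. The absence of overlap was demanded by the choice, and among all genes of the same WT abundance 20.3% had every HLM23 value below every WT value. In the limma fit across all 9452 genes with a mean of at least 1, 132 of the 134 genes were past an adjusted p of 0.05, against 14.3% of all tested genes called lower in HLM23. All 134 passed that filter, which they could not fail at the WT mean demanded. By the adjusted p of the authors' deposited table, 130 genes were past the same threshold, against 15.7% of all genes called lower. The median fitted log2 fold change of the set was -1.66, and that of all tested genes was -0.0022. These counts rest on the contrast that chose the genes and are given only as a description.

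The gene with the deepest fitted fall was NO14G00440, on the minus strand of chromosome 14 (chr14:172006-174641). It had 6.52, 0 and 3.00 normalised reads in HLM23, against 46.0, 28.7 and 109 in the WT. The gene was close to undetected in HLM23 and had the largest spread between replicates of the set on the log2 scale. The value of 0 in HLM23 replicate 2 allows up to 2.92 normalised reads, the equivalent of 3 reads. HLM23 averaged 3.17 ± 3.26 and the WT 61.2 ± 42.2 (SD, n = 3 each), or 5.18% of the WT mean. Its fitted log2 fold change was -4.11 ± 0.74 (SE), and without HLM23 replicate 2 it was -3.29.

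A similar depth, 7.83% of the WT mean, was seen for chr27:135769-138698 on the plus strand. The gene had 2.17, 4.87 and 9.00 normalised reads in HLM23, against 86.3, 47.9 and 70.6 in the WT. It overlaps another gene of the table, and strand handling is not stated, so reads of both genes cannot be told apart in the shared stretch. Both deep falls stand on few HLM23 reads.

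A well separated pair of genes lay side by side on chromosome 30. The gene chr30:337274-339430 on the minus strand had 10.9, 22.4 and 36.0 normalised reads in HLM23, against 252, 295 and 244 in the WT. Its neighbour chr30:339466-342510 on the plus strand had 10.9, 39.0 and 12.0 in HLM23, against 179, 167 and 255 in the WT. The start sites face away from each other with 35 bases between the genes, a divergent arrangement. The lowest WT value was 6.78 times the highest HLM23 value in the first gene, the widest gap of the set, and 4.28 times in the other. The WT replicate 2 value was the highest of the WT in the first gene and the lowest in the other, so that library did not stand to one side in both.

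**Figure D2:**
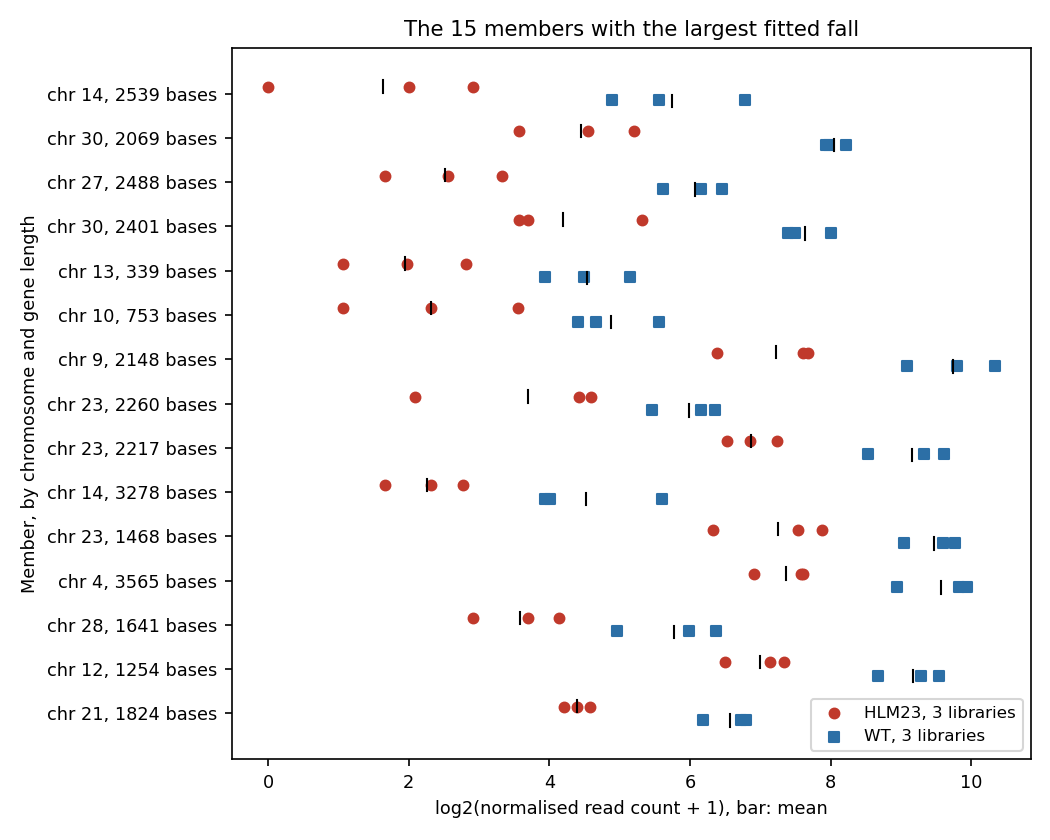
Values in each library, as log2(normalised read count + 1), of the 15 genes with the largest fitted fall, labelled by chromosome and gene length in bases, with HLM23 as circles above the WT as squares and a bar at each mean. No gene overlaps between the strains, as the choice required, and the 3 HLM23 values of the top gene (6.52, 0 and 3.00 normalised reads) lie farther apart on this scale than those of the others.

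The more abundant genes of the set gave the reduction at many more reads. NO12G00460 on the plus strand of chromosome 12 (chr12:170787-175826) had the highest WT mean, with 199, 438 and 337 normalised reads in HLM23, against 1135, 832 and 1024 in the WT. HLM23 averaged 324 ± 120 and the WT 997 ± 153 (SD, n = 3 each), or 32.6% of the WT mean. The next in WT level were chr4:243915-248485 at 34.5%, chr20:122229-124226 at 29.9%, chr11:648300-653021 at 38.5% and chr10:233927-239586 at 36.1%. The deepest reduction among the genes with a WT mean of at least 500 was that of chr9:547253-549720. It had 82.5, 194 and 203 normalised reads in HLM23, against 1285, 539 and 891 in the WT, or 17.7% of the WT mean.

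Between these extremes, the other genes with the deepest fitted falls had either few or many reads in the WT. With few reads, the short gene chr13:135234-135572 had 1.09, 2.92 and 5.998 normalised reads in HLM23, against 21.6, 14.4 and 34.3 in the WT. The gene chr14:466682-470226 had 2.17, 5.85 and 4.00 in HLM23, against 15.02, 14.4 and 47.4 in the WT. The gene chr23:298265-300524 had 3.26, 20.5 and 23.0 in HLM23, against 43.2, 69.9 and 80.7 in the WT. WT replicate 3 was the highest WT library in the genes on chromosomes 13 and 14, and stood well apart only in that on chromosome 14. In the gene on chromosome 23, HLM23 replicate 1 stood apart as the lowest HLM23 library. With many reads, chr4:380926-385838 had 119, 190 and 194 in HLM23, against 905, 492 and 975 in the WT. The gene chr12:906856-908109 had 89.1, 160 and 140 in HLM23, against 746, 407 and 622 in the WT. They stood at 21.2% and 21.9% of the WT mean, with WT replicate 2 as the lowest WT library.

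The steadiest gene of the set between replicates was chr19:698342-700239. It had 31.5, 36.1 and 28.0 normalised reads in HLM23, against 130, 113 and 126 in the WT. Its HLM23 mean of 31.9 ± 4.05 was 25.9% of the WT mean of 123 ± 9.05 (SD, n = 3 each), with every value within a narrow band in both strains. Near the 40% limit, the last 5 genes inside had ratios of 39.0% to 39.8%, and the nearest 5 genes outside had 40.2% to 40.5%. The last gene inside, chr13:874335-877835, had 139, 210 and 351 normalised reads in HLM23, against 733, 398 and 627 in the WT. Its highest HLM23 and lowest WT values differed by a factor of only 1.13.

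A further 5 genes of the same abundance reached 40% of the WT mean or less and were left out because the strains overlapped. The lowest ratio among them, 2.49%, came from chr10:1008238-1009105, with 0, 0.975 and 2.00 normalised reads in HLM23, against 17.8, 101 and 1.01 in the WT. Its WT mean was set mostly by 1 library. The gene is singled out for that ratio after its values were seen. At other WT levels, 23 genes with a WT mean below 20 and 75 with a WT mean of at least 1000 met the remaining conditions. With the set they made 232 genes, or 2.43% of the table.

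The libraries of each strain did not contribute evenly. Relative to the WT mean of each gene, the median level of the set was 23.4%, 34.5% and 33.4% in HLM23 replicates 1, 2 and 3, against 117%, 74.3% and 106% in WT replicates 1, 2 and 3. WT replicate 2 was thus the lowest WT library for the set, and HLM23 replicate 1 the lowest HLM23 library. Gene by gene, HLM23 replicate 1 was the lowest HLM23 library in 102 of the 134 genes (76.1%), compared with 27.3% of all genes in the same WT range. WT replicate 2 was the lowest WT library in 113 genes (84.3%), compared with 30.4% of all genes in that range. Across all genes of that range, whose values the authors had scaled between libraries, the median level was 100% to 103% of the WT mean in the HLM23 libraries and 99.4% to 101% in the WT libraries. The part of the replicate 2 libraries in the values of the set was not tested beyond the values with and without them.

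**Figure D3:**
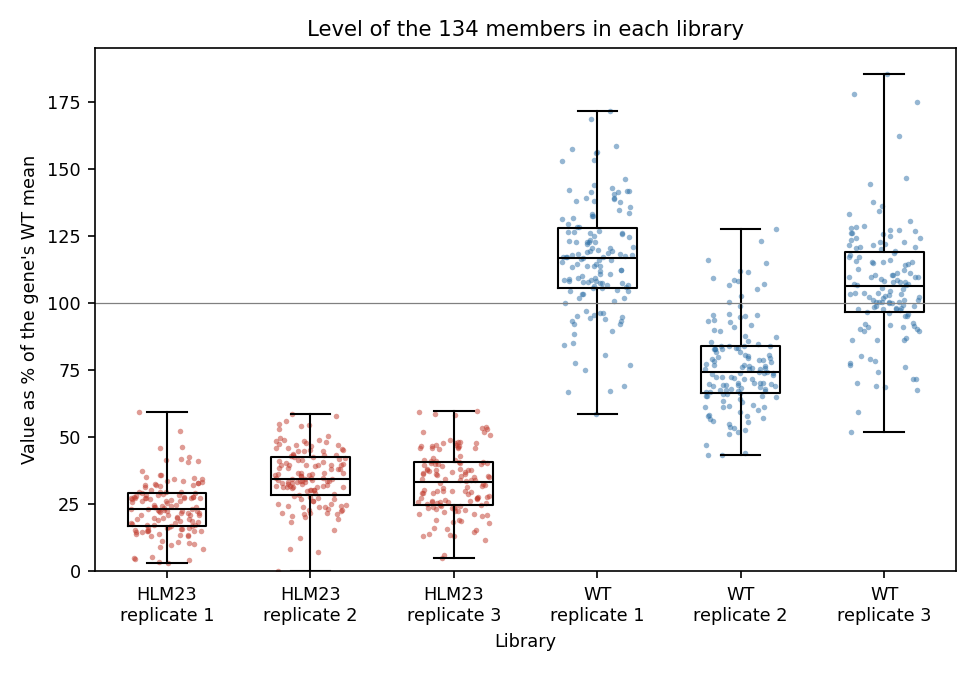
Level of the 134 genes in each library as a percentage of the gene's WT mean, with HLM23 libraries left of WT libraries, 1 point per gene, boxes for the quartiles and whiskers to the extremes. The medians are 23.4%, 34.5% and 33.4% in HLM23 and 117%, 74.3% and 106% in the WT.

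The spread between replicates was wide. The coefficient of variation had a median of 33.4% in HLM23 and 26.8% in the WT over the set, and of 18.2% and 15.3% over all genes of the same WT abundance. Those genes match the set in WT level only. In HLM23 the set had fewer reads by the choice, and the part of this in its spread was not tested. Taken by library number, the median of the set was 19.6% of the WT value between the replicate 1 libraries, 47.9% between the replicate 2 libraries and 32.0% between the replicate 3 libraries. Without both replicate 2 libraries the same conditions were met by 226 genes, of which 123 were among the 134.

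To read the ratios in libraries that had no part in the choice, the conditions were applied again to 4 libraries, and the genes found were read in the 2 libraries left out. Chosen without the replicate 1 libraries, 101 genes had a median of 21.2% of the WT value in those libraries (quartiles 14.2% and 44.2%), and 98 of them lay below the WT. Chosen without the replicate 2 libraries, 226 genes had a median of 57.1% there (quartiles 45.3% and 71.1%), and 217 lay below the WT. Chosen without the replicate 3 libraries, 156 genes had a median of 38.3% there (quartiles 26.2% and 51.0%), and 149 lay below the WT. Lower values in HLM23 were thus seen in 95.5% to 97.0% of the genes in libraries that had no part in the choice, compared with 46.6% to 48.5% of all genes of similar WT abundance. In the 4 libraries that chose them, the median ratios were 33.9%, 31.4% and 31.9%, so the left-out readings were lower for the replicate 1 libraries and higher for the replicate 2 and 3 libraries. In the left-out libraries the limit of 40% was met by 74 of 101, 33 of 226 and 88 of 156 genes. Of all genes of similar WT abundance, 6.11%, 1.12% and 5.36% met it there. The replicates of a strain may share a culture, so these readings are a description without a p-value.

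**Figure D4:**
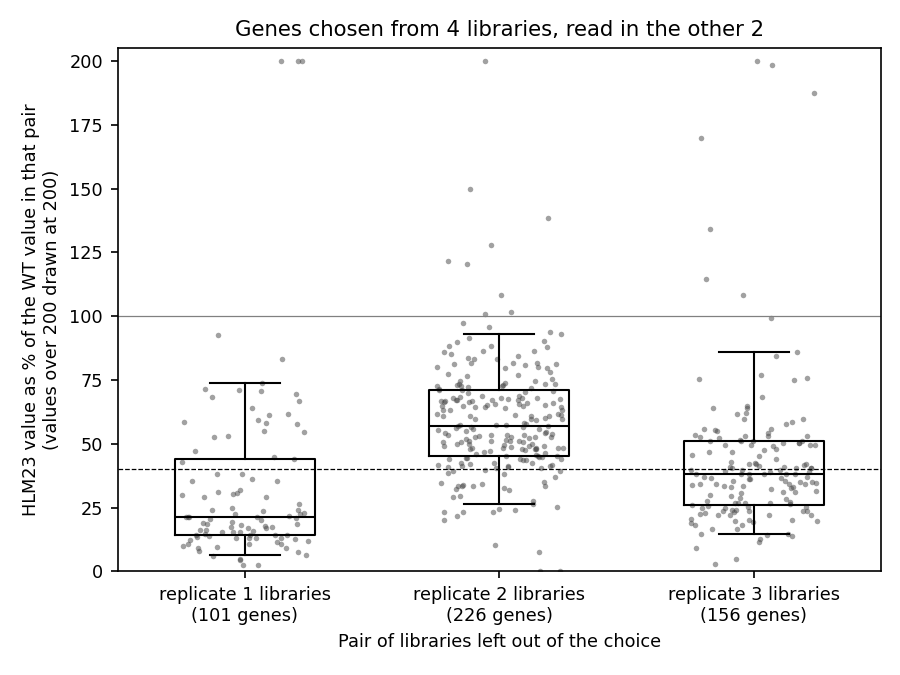
HLM23 value as a percentage of the WT value in the pair of libraries left out, for genes chosen by the same conditions from the other 4 libraries, 1 point per gene, boxes for the quartiles and whiskers from the 5th to the 95th percentile. The medians are 21.2%, 57.1% and 38.3%, and most genes lie below the line at 100%, while the replicate 2 libraries lie mostly above the dashed line at 40%.

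Gene structure was compared with that of all genes of the same WT abundance, the set included. The median gene length was 1910.5 bases, compared with 1814 bases over all genes of the same WT range, and the lengths ran from 219 to 6966 bases. Genes shorter than 500 bases were 18 of 134 (13.4%), compared with 5.66% in that range. In wider length classes the set was more even. It made up 2.64% of the genes of that range under 1000 bases, 2.27% from 1000 to 3000 bases and 2.55% of at least 3000 bases. The median ratio was 32.0% in the 29 genes under 1000 bases, 31.4% in the 76 genes from 1000 to 3000 bases and 34.9% in the 29 genes of at least 3000 bases, again under the limit that the choice set. The longest gene, chr27:391153-398118, had 44.5, 114 and 81.0 normalised reads in HLM23, against 476, 191 and 342 in the WT. Genes whose listed length equals their span, and which therefore hold no intron in the table, were 51 of 134 (38.1%), compared with 32.9% in the range. On the plus strand lay 65 genes of the set. These shares are descriptions and their differences were not tested.

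The 134 genes were spread over 29 of the 30 chromosomes. Chromosomes 10 and 24 held 9 each, and chromosome 22 held none of its 119 genes in the WT range. The largest share was that of chromosome 30, with 5 of 68 genes (7.35%). Within 50 kb of the first or last gene of a chromosome lay 11 genes of the set (8.21%), compared with 6.93% of all genes in the range. Another gene of the table overlapped 18 of the set (13.4%), compared with 13.6% in the range.

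Several of the genes lay next to each other. In 14 places 2 or more consecutive genes belonged to the set, 13 times 2 genes and once 3, and these places held 29 of the 134 genes. Of the 15 adjacent pairs, 13 had both genes on the same strand, a tandem arrangement, 2 were divergent and none was convergent. Of all genes in the files, 39.0% of 9522 adjacent pairs were tandem. The genes of these pairs lay close together, with a median of 49 bases between them compared with 240 bases over all adjacent pairs. The latter are of every arrangement, and the distances of tandem pairs alone were not compared. A pair on chromosome 24 overlapped by 401 bases, and there reads of either gene cannot be told apart.

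The run of 3 genes lay on the plus strand of chromosome 23. The first, chr23:600829-603151, had 91.2, 149 and 115 normalised reads in HLM23, against 643, 368 and 779 in the WT. The next, chr23:603201-604668, had 79.3, 235 and 185 in HLM23, against 871, 524 and 772 in the WT. The last, chr23:606008-609799, had 276, 377 and 209 in HLM23, against 1031, 769 and 611 in the WT. Along the strand the ratios were 19.9%, 23.0% and 35.8% of the WT mean, with 49 bases between the first and the next gene and 1339 between the next and the last.

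In other tandem runs the ratios of both genes were close in some pairs and further apart in others, all of them under the 40% limit. On chromosome 1, chr1:197951-199183 had 66.2, 91.6 and 50.0 normalised reads in HLM23, against 226, 222 and 226 in the WT. The gene 107 bases further on the same strand, chr1:199291-199896, had 18.5, 41.9 and 31.0 in HLM23, against 118, 82.4 and 116 in the WT. The ratios of the pair were 30.8% and 28.9%, although the WT level of the first gene was nearly constant. On chromosome 13 the genes chr13:351085-352540 and chr13:352550-354501, 9 bases apart, stood at 32.1% and 25.1% of the WT mean. On chromosome 21 the genes chr21:194777-198087 and chr21:198657-200480, 569 bases apart, stood at 29.9% and 21.1%. The larger differences within a pair were on chromosome 12, where chr12:906416-906820 stood at 38.6% beside the 21.9% of its neighbour, and on chromosome 28, where chr28:348014-350011 stood at 20.1% beside 31.3% of chr28:350222-350488. Over all 15 pairs, every gene lay under 40% by the choice itself, so the likeness within pairs was not tested.

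A further tandem pair lay on chromosome 7. The gene chr7:251117-252109 had 57.6, 65.3 and 62.0 normalised reads in HLM23, against 274, 194 and 236 in the WT. The gene after it, chr7:252142-252543, had 31.5, 54.6 and 42.0 in HLM23, against 163, 114 and 135 in the WT. A gene upstream of both on the other strand, chr7:248972-250609, averaged 346 in HLM23 and 1083 in the WT, just above the abundance limit, and stood at 31.9% of the WT mean, close to 26.2% and 31.1% of the pair. It lies 507 bases from the pair in a divergent arrangement.

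Both genes of the set that missed the limma threshold were short genes of few reads in tandem pairs. These were chr4:750544-750828, with 6.52, 4.87 and 11.0 normalised reads in HLM23, against 40.4, 14.4 and 17.1 in the WT, and chr16:666643-666978, with 6.52, 8.77 and 11.0 in HLM23, against 39.4, 13.4 and 16.1 in the WT. In both, 1 WT library stood well above the others. The longer gene beside each was past the threshold. That on chromosome 4 was itself short, with a gene length of 405 bases and a WT mean of 50.1. It was not past the threshold without WT replicate 1 or WT replicate 3 (limma adjusted p = 0.064 and 0.071).

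The genes directly beside the set, leaving out the set itself, were compared between the strains. Of 234 such neighbours, all tested, 57 (24.4%) were called lower and 29 (12.4%) higher in HLM23 in limma, against 14.3% lower and 14.5% higher over all tested genes. Without WT replicate 1, 34 of the 234 were called lower, against 7.08% of all genes, and without WT replicate 3 it was 35 of 234, against 7.11% of all genes. The median for the neighbours was -0.22 on the log2 scale. Counting each neighbour once per gene of the set beside it, tandem neighbours had 36 of 110 called lower and -0.48 as median log2 fold change, divergent neighbours 12 of 56 with -0.20, and convergent neighbours 11 of 71 with -0.12. These differences between arrangements were not tested.

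Neighbours were also divided by distance at 500 bases, a limit that was not among the planned comparisons. Under 500 bases, overlapping genes included, 31 of 75 tandem neighbours were called lower, and their median change was -0.63 (log2). At 500 bases or more it was 5 of 35, with a median of 0.032, close to the -0.0022 of all tested genes. Divergent neighbours had medians of -0.20 under 500 bases and -0.17 beyond, with 8 of 31 and 4 of 25 called lower. Convergent neighbours had medians of -0.053 under 500 bases and -0.30 beyond, with 5 of 43 and 6 of 28 called lower. Strand handling is not stated, and the part of reads that spill over from one gene into the next was not tested.

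**Figure D5:**
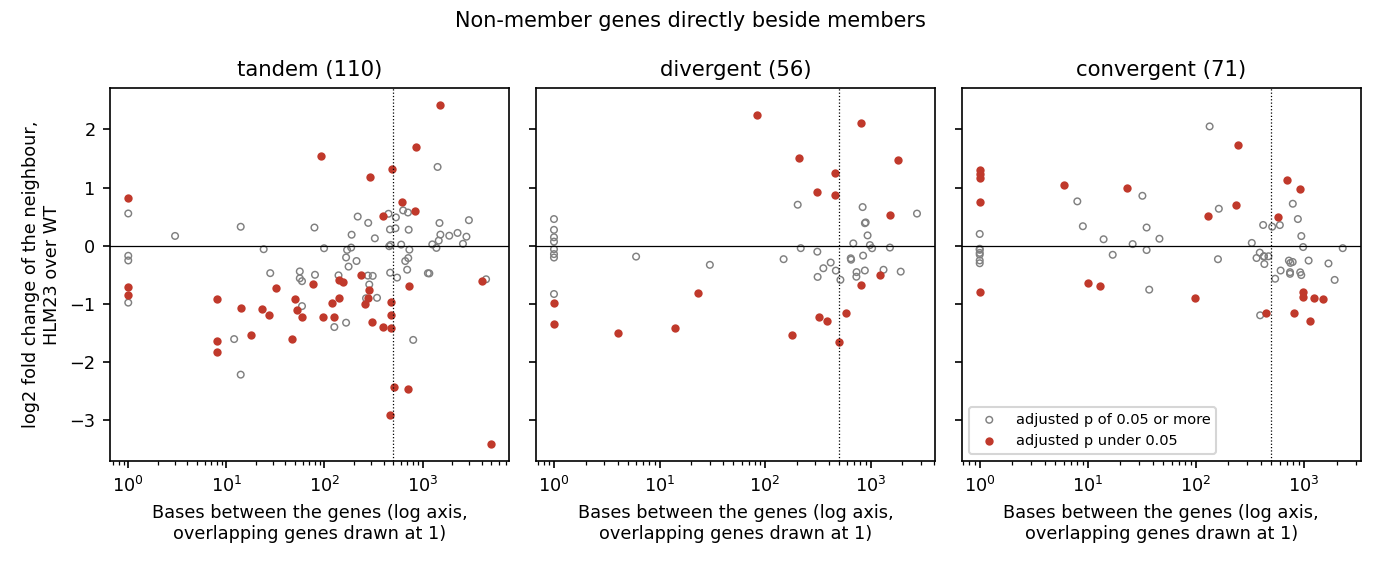
Log2 fold change (HLM23 over WT) of each gene directly beside a gene of the set against the number of bases between them (log axis, overlapping and touching genes drawn at 1), by arrangement, with filled points past an adjusted p of 0.05 in limma. Among the 110 tandem neighbours the filled points at negative values gather left of the dotted line at 500 bases, where 31 of 75 were called lower, against 5 of 35 to the right.

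Among the genes on the upper side of the abundance limit were tandem partners 8 to 47 bases away. On chromosome 18, chr18:792136-793281 had 137, 244 and 215 normalised reads in HLM23, against 1056, 501 and 779 in the WT, or 25.5% of the WT mean, and the gene before it, chr18:787871-792127, averaged 307 in HLM23 and 1117 in the WT, or 27.4%. On chromosome 6, chr6:417609-420368 had 156, 181 and 209 in HLM23, against 729, 540 and 513 in the WT, or 30.7%, and the gene after it, chr6:420416-425624, averaged 1396 in HLM23 and 4229 in the WT, or 33.0%. These partners were picked after their values were seen.

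Of the 234 neighbours, 16 had the same ratio and order as the set and lay outside its abundance range, 10 above it and 6 below. With them, 41 of the 134 genes (30.6%) stood beside at least 1 gene that was at most 40% of the WT mean without overlap, compared with 4.52% of all genes in the same WT range that had such a neighbour. On chromosome 17 a gene of the set stood between 2 more abundant ones. The gene in the middle, chr17:187836-190348, had 64.1, 114 and 87.0 normalised reads in HLM23, against 281, 170 and 252 in the WT. The divergent gene before it, chr17:179771-187656, averaged 1731 in HLM23 and 5055 in the WT, and the tandem gene 8 bases after it, chr17:190357-192561, averaged 399 in HLM23 and 1194 in the WT. All 3 stood between 33.4% and 37.7% of their WT means. On chromosome 10 the tandem pair chr10:233927-239586 and chr10:239670-241461, at 36.1% and 26.9%, was continued by chr10:241934-244874, which averaged 1005 in HLM23 and 2681 in the WT, or 37.5%. The chromosome 7, 10 and 17 neighbourhoods were picked after their values were seen.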

How the data were processed

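The deposited table holds normalised gene values in 6 libraries, given as a signal scaled between libraries by the authors. All of them (100%) were whole multiples of 1 step per library, with a tolerance of 0.001 reads, so they can be read as scaled gene reads. The FPKM values, the log2 fold changes and the p-values with their adjusted values were deposited by the authors. Tools listed in the submitters' processing notes, without versions, are DESeq2, fastp, featureCounts and HISAT2. Settings, build and strand handling: not given in the sources used here.

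Libraries were grouped by their titles. On log2(value + 1), limma 3.58.1 (R 4.3.3) was fitted with a mean-variance trend, all 6 libraries and Benjamini-Hochberg adjustment over the 9452 genes with a mean of at least 1. The 1 added before the log makes the fitted falls of genes with few reads smaller. The fit averages log values, so a fitted fall can still exceed the fall in the means. No count model was run, since an automatic unit check refused to read 2 of the columns as reads. The fit was tried on simulated data with the same spread setting for every gene, in which only genes with more reads were lowered. That trial does not show how the fit performs for genes of the set with few reads or a wide spread. The genes of the set and all conditions were chosen with earlier results of these data known. Named were the 15 deepest fitted falls, the 5 highest WT means, the 5 genes nearest to the limit on each side, genes in runs, and the steadiest and most variable gene, of which the text gives examples. Gene lists by function could not be used, since no description is paired with the IDs. The alternatives were other pseudocounts, filters, scalings, limits and models, a replicate block and leaving out libraries. Alternatives without both replicate 2 libraries and with a gene length trend removed were added after seeing the data.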

Additional observations from a re-analysis of the deposited data

How the results depend on the processing

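The number of genes that met the conditions was 134 as reported, 52 with a limit of 30% of the WT mean, 293 with 50%, and 226 without both replicate 2 libraries, an alternative added after seeing the data. Equal library totals gave 170, of which 133 were among the 134, and moved the median log2 fold change of all genes to -0.11 and that of the set to -1.77. Leaving out 1 library gave 111 to 180 genes. Of the 134, 104 to 128 were past the limma threshold without 1 library, and 105 at an adjusted p under 0.01. Over all tested genes, 2730 were past the threshold (1356 lower, 1374 higher), 1303 at 0.01, and 1527 to 2655 without 1 library, the lowest without WT replicate 1 (1527), WT replicate 3 (1541) and HLM23 replicate 1 (1741). With equal totals 1603 were lower and 1025 higher. Of the neighbours, 34 to 57 were called lower without 1 library, and 57 as reported. With the replicate block 130 of the set and 2635 of all genes were called. Replicate numbers did not meet the bound for pairing, since deviations from the strain means correlated at -0.069, -0.11 and 0.15. The 48 genes covered by the naming rule, NO06G03670 included, kept their direction in all 768 alternative values. For genes of the set, the choice without overlap fixed that direction under other pseudocounts, filters or fewer libraries, so it is no support. Of the 48 genes, 11 missed the threshold in at least 1 alternative, including the 2 that missed it as reported. The left-out readings were 21.2%, 57.1% and 38.3% as reported, and 21.0%, 49.2% and 28.1% under a limit of 30%. With equal totals they were 20.6%, 60.6% and 34.6%. Each moved by less than the SD of the 3 medians as reported, 17.9 percentage points. That bound is wide because the 3 pairs of libraries differ, so it could show only large shifts. Depth limits the genes with few HLM23 reads: the log2 fold change of NO14G00440 was -2.30 with log2(value + 10).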
